A study of Mus musculus with 4 samples.

Results

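The genes described here are 47 genes of the DNA replication machinery, chosen by symbol from the 24984 genes of the deposited table. They cover every step from marking the origins to joining the finished strands: 6 subunits of the origin recognition complex, 3 licensing factors, 6 subunits of the MCM helicase, 6 helicase activation factors, 8 polymerase and primase subunits, 6 clamp and clamp loader subunits, 3 subunits of the single-strand binding protein RPA, 2 enzymes of lagging strand maturation, 4 enzymes of nucleotide supply and 3 fork protection factors. All 47 were in the table, and all 47 passed the filter on low values, a mean over the 4 libraries of at least 1 CPM (the fragments of a gene scaled to a common library total), as 11625 genes did in all.

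The data were TTchem-seq libraries of double positive (DP) thymocytes, the stage at which developing T cells carry both CD4 and CD8. In TTchem-seq, cells take up 4-thiouridine for a short time and the RNA labelled in that time is sequenced, so that the count of a gene follows its transcriptional output more closely than its stored mRNA. The control group (WT, 2 libraries) had the genotype label Tox4;F/F, and the knockout group (cKO, 2 libraries) had the label Tox4;F/F;Lck+. Both groups therefore carried the floxed Tox4 alleles, and the cKO mice also carried Cre, which in this study is under the proximal Lck promoter and removes exons 4 to 6 of Tox4 from the DN3 stage of thymocyte development onward. Mice were littermates of C57BL/6 background and 6 to 8 weeks old. The cells were kept in culture for a short time before labelling. For other assays the study purified DP cells with beads against CD4, which also bind CD4 single positive cells, and the purification for TTchem-seq is not given in the sources used here. The labels number the libraries within a genotype but name no mouse, so the p-values below measure the spread between these libraries.

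DNA replication starts at origins bound by the origin recognition complex. In G1 phase Cdc6 and Cdt1 load the ring-shaped MCM helicase there, and at the start of S phase Cdc45 and the GINS complex turn it into an active helicase, behind which primase and the replicative polymerases copy both strands. Most of these genes are transcribed in a burst around the G1 to S transition under control of E2F transcription factors, so that their summed output in a population follows the share of cells in or near S phase. In the thymus that share is high among the large, dividing DP blasts and low among the small, resting DP cells that make up most of the population. In bulk libraries, a change in the share of cycling cells and a change of transcription in each cell cannot be told apart.

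The libraries held from 38429786 to 48690591 assigned fragments. The targeted gene Tox4 stood at 74.0 and 70.3 CPM in WT replicates 1 and 2 and was lower in both cKO replicates, with 59.3 and 57.2 CPM. It was called decreased (log2 fold change -0.31, SE 0.10, DESeq2 adjusted p = 0.045). This call did not hold in edgeR (adjusted p = 0.15) or in DESeq2 without WT replicate 1 (-0.28, adjusted p = 0.62). The Tox4 count ran over the whole gene, introns and the parts outside the deleted exons included. Of the DP markers, all 7 were measured in every library, with a summed level of 3011, 3672, 3091 and 2858 CPM in WT replicates 1 and 2 and cKO replicates 1 and 2. Over the same libraries the summed level of 7 markers of mature single positive cells was 495 to 567 CPM, that of 4 DN markers 60.5 to 69.0 CPM, that of 5 B cell markers 8.86 to 10.1 CPM, that of 5 myeloid markers 9.14 to 11.9 CPM and that of 5 erythroid markers at most 0.465 CPM. Of the DP markers 2 were called, of the single positive markers 4, and of the other lists 0. The ribosomal precursor Rn45s took 2.44% to 4.30% of the fragments. WT replicate 1 stood apart from the other 3 libraries in Xist, the RNA that coats the inactive X chromosome, with 172 CPM there and at most 2.36 CPM elsewhere. Xist is made in female cells, so by this gene the libraries were not matched in sex, although the study's methods describe littermates of matched gender. WT replicate 1 also had the lowest summed level of the genes described here, and the main results are therefore followed by their values without it. The part of the Xist difference and of the marker levels in these results was not tested.

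Of the 47 DNA replication genes, 6 were called increased in cKO and 0 decreased (DESeq2 adjusted p under 0.05, fold change of at least 1.2 and mean CPM of at least 1). Among all genes tested by the same rule, 2.14% were called increased and 1.57% decreased. The 6 were Cdc6, Cdc45, Prim2, Rrm1, Timeless and Clspn, and their fold changes ran from 1.22 to 1.63. The fitted log2 fold change was above 0 for 43 of the 47. Its median was 0.33, beside 0.00 over all genes tested, and it ranged from -0.08 to 0.76. None of the calls held in edgeR, whose quasi-likelihood test called 0 members and 0.413% of all genes increased. Its smallest adjusted p over the members was 0.159, and 18 members had an unadjusted edgeR p under 0.05, as had 15.6% of all genes tested. In DESeq2, 18 members and 13.5% of all genes had such a p.

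Summed over the 47 genes, the level was 1690 CPM in WT replicate 1, 1947 CPM in WT replicate 2, 2187 CPM in cKO replicate 1 and 2157 CPM in cKO replicate 2. The cKO libraries were thus close to each other and above both WT libraries, and WT replicate 2 lay about midway between WT replicate 1 and the cKO pair. By gene, 33 members had both cKO libraries above both WT libraries, as 24.9% of all genes tested had, and 2 members, Orc5 and Rfc5, had both cKO libraries below, as 24.0% of all genes had. The order with WT replicate 1 lowest, WT replicate 2 next and both cKO libraries above was found in 30 members, as in 14.4% of all genes tested. WT replicate 1 was the lowest of the 4 libraries in 39 members, as in 27.8% of all genes tested. The highest library was a cKO library in 38 members, as in 51.7% of all genes.

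**Figure D1:**
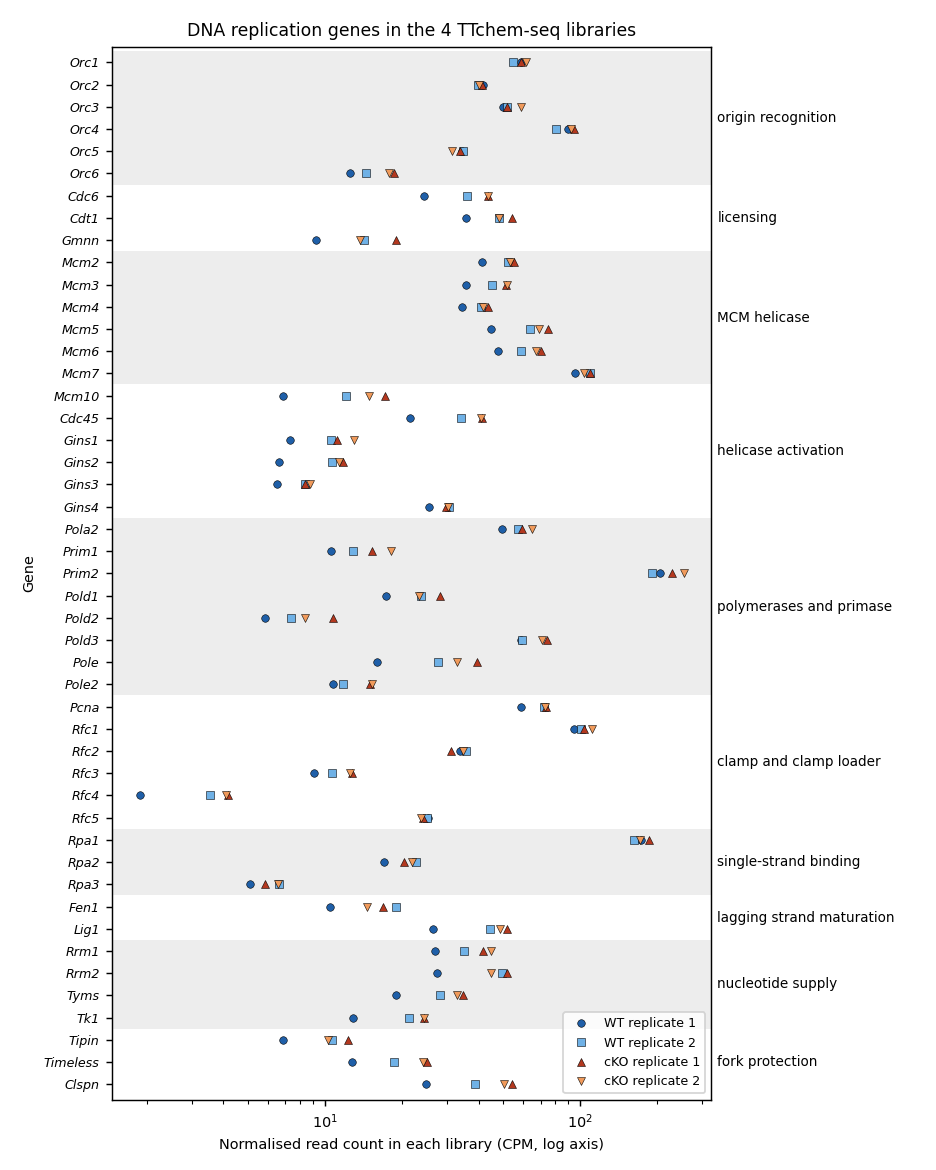
Level of each of the 47 DNA replication genes in CPM (log axis) in the 4 TTchem-seq libraries, 1 point a library, with genes grouped by role. WT replicate 1 (dark circles) is the lowest point in 39 rows. In the 3 RPA genes, as in some genes of other roles, the points of the genotypes overlap.

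The WT libraries differed from each other in these genes by about as much as the genotypes. WT replicate 2 was at least 1.2-fold above WT replicate 1 in 29 of the 47 members, as were 11.7% of all genes tested, and the reverse was seen in 0 members against 8.09% of all genes. The median log2 ratio of WT replicate 2 over WT replicate 1 was 0.34 over the members and 0.00 over all genes. The cKO libraries were at least 1.2-fold apart in 3 members, Gmnn, Pold1 and Pold2, which were all higher in cKO replicate 1, whereas 20.6% of all genes were that far apart. With 1 library on each side, these ratios have no replicate check.

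None of the 6 calls held without WT replicate 1. In that fit 0 members were called, against 0.972% of all genes increased, the median log2 fold change of the members was 0.16 and 38 of 47 were above 0. Without WT replicate 2, 15 members were called increased, against 2.75% of all genes, and the median was 0.52. Those 15 included 5 of the 6 genes called with all libraries and left out Prim2. Leaving out cKO replicate 1 or cKO replicate 2 gave medians of 0.27 and 0.35. In each of these fits the group with 1 library was assumed to vary like the other.

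**Figure D2:**
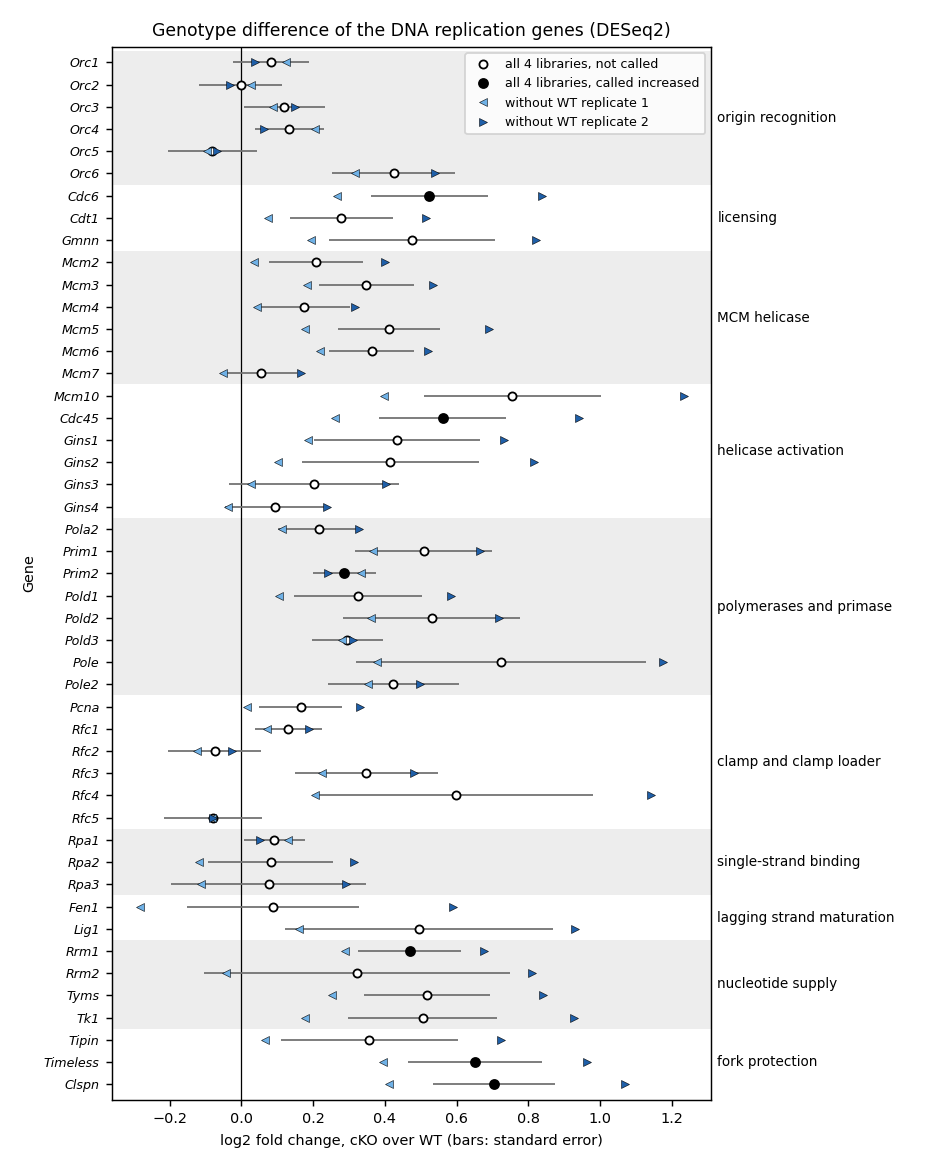
Log2 fold change of cKO over WT for each DNA replication gene from DESeq2, with its standard error as bars and the values obtained without WT replicate 1 and without WT replicate 2 as triangles. Filled circles are the 6 genes called increased, and most of the left-pointing triangles lie nearer to 0 than the circles, with 9 below 0.

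Promoters were read to see what the members share in sequence. RefSeq promoter sequences of GRCm38.p6, from 250 bases before to 50 bases after the start site, were at hand for 38 of the 47 genes, and none for Gmnn, Mcm4, Gins1, Gins2, Gins4, Prim2, Pole, Rfc2 and Tipin. Each was searched on both strands for the E2F words TTTCCCGC, TTTGGCGC, TTTCGCGC and TTTGCCGC. At least 1 of these words was found in 14 of the 38 promoters (36.8%), against 4.49% of the 9103 promoters of all genes tested. The word CCAAT, bound by NF-Y, was in 60.5% of the member promoters and in 39.7% of all. The words TTTGAA and TTCGAA, the cell cycle homology region of many G2/M genes, were in 15.8% of the member promoters and in 13.8% of all. Matches of different motifs may share bases, and 1 of the 20 E2F words in member promoters shared any with a match of the other motifs. These are counts of letters and not of bound sites.

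Below are the stretches around the E2F words of 5 genes, 5′ to 3′ along the gene's strand, with the words in capitals. They show a called licensing factor, a called fork protection factor, both MCM subunits in which E2F words overlap, and an origin recognition gene that carries a word while its level was nearly the same in all 4 libraries. They are Cdc6 (chr11:98907983-98908050, + strand), Clspn (chr4:126556991-126557018, + strand), Mcm5 (chr8:75109326-75109397, + strand), Mcm6 (chr1:128359715-128359845, - strand) and Orc1 (chr4:108579397-108579453, + strand).
Cdc6: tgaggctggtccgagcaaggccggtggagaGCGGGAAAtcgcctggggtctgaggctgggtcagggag
Clspn: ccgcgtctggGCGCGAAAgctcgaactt
Mcm5: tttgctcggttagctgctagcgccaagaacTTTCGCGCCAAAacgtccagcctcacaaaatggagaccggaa
Mcm6: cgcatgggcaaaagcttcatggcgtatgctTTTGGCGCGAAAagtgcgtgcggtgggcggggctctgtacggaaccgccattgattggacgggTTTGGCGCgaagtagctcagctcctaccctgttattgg
Orc1: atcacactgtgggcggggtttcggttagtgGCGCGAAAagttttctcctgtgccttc
In Cdc6 the word TTTCCCGC lay on the other strand, 138 to 131 bases before the RefSeq start, which is itself 350 bp from the start in the deposited table. Mcm5 held TTTCGCGC and, overlapping it on the other strand, TTTGGCGC. Mcm6 held the same pair of words in the reverse arrangement and a further TTTGGCGC nearer the start. In Clspn the word lay from 21 to 28 bases after the start.

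**Figure D3:**
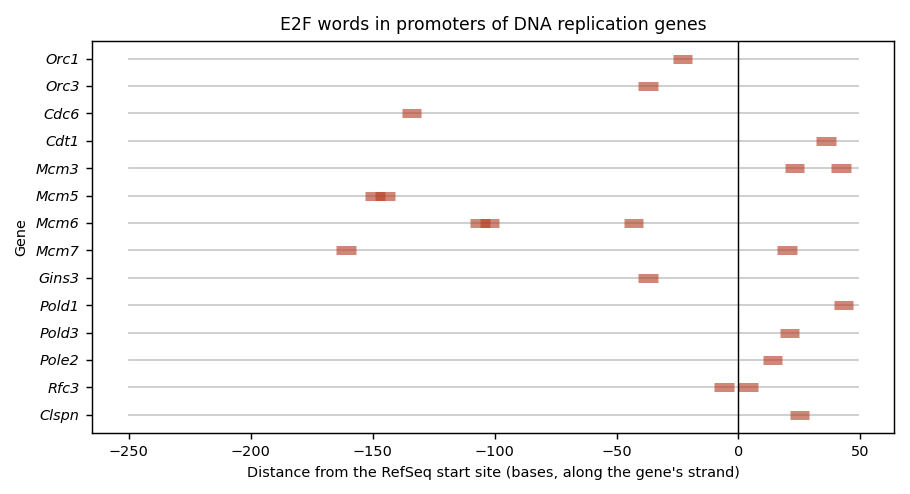
Position of E2F words (bars) in the promoters of the 14 DNA replication genes that hold any, as the distance in bases from the RefSeq start site along the gene's strand. Words lie on either side of the start, and darker stretches in Mcm5 and Mcm6 are words that overlap.

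Members with and without an E2F word overlapped in their fold changes. The 14 with a word ran from 0.05 to 0.70 on the log2 scale around a median of 0.34, and 2 of them, Cdc6 and Clspn, were called. The 24 without a word ran from -0.08 to 0.76 around a median of 0.27, with 3 called. Of these, Timeless has its RefSeq start 6003 bp from the start in the deposited table, so the promoter read may not be that of the counted transcript. The median log2 ratio of WT replicate 2 over WT replicate 1 was 0.31 in the first set and 0.35 in the second. With WT replicate 1 left out the median log2 fold changes were 0.18 and 0.15. These differences were not tested.

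The origin recognition complex, which marks the sites where replication can start, had a median log2 fold change of 0.10 over its 6 genes. Of these 0 were called, and 4 had both cKO libraries above both WT libraries (24.9% of all genes). The complex was the only role in which the median ratio of the WT libraries was below 0 (-0.03). Orc1, the subunit that is made and lost with the cell cycle, had 58.5 CPM in WT replicate 1, 54.5 CPM in WT replicate 2, 58.5 CPM in cKO replicate 1 and 61.4 CPM in cKO replicate 2. The log2 fold change of Orc1 was 0.08 (SE 0.11, DESeq2 adjusted p = 0.82), so its genotypes almost touched. The highest fitted change of the complex was that of Orc6 (0.42, SE 0.17, DESeq2 adjusted p = 0.17), with 12.6 and 14.5 CPM in WT and 18.7 and 17.8 CPM in cKO. The lowest was that of Orc5 (-0.08), whose span in the table also covers the same-strand gene Gm15421.

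The licensing factors load the helicase onto origins. Cdc6 (chr11:98907801-98923942), the ATPase that brings the helicase to the origin recognition complex, was measured at 24.4 and 35.9 CPM in WT replicates 1 and 2 and at 43.4 and 43.6 CPM in cKO replicates 1 and 2. It was called increased (log2 fold change 0.52, SE 0.16, DESeq2 adjusted p = 0.035). The cKO libraries were nearly equal while the WT libraries lay well apart. Its value was 0.27 when WT replicate 1 was left out (DESeq2 adjusted p = 0.86). Cdt1, the partner of Cdc6, had 35.8, 48.0, 53.9 and 48.1 CPM in the same order of libraries. For Cdt1 the fitted change was 0.28 (SE 0.14, DESeq2 adjusted p = 0.36), and WT replicate 2 and cKO replicate 2 were at the same level. Geminin (Gmnn), which binds Cdt1 and blocks a further round of loading, had 9.27, 14.2, 19.0 and 13.8 CPM. Here the genotypes overlapped, with a fitted change of 0.48 (SE 0.23, DESeq2 adjusted p = 0.31).

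All 6 genes of the MCM helicase, the motor that unwinds DNA at the fork, had fitted changes above 0, from 0.05 in Mcm7 to 0.41 in Mcm5, and 0 were called. WT replicate 1 was the lowest library in each of them. Mcm2 was at 41.2, 52.4, 55.1 and 53.2 CPM in WT replicates 1 and 2 and cKO replicates 1 and 2 (log2 fold change 0.21, SE 0.13, DESeq2 adjusted p = 0.51). Mcm5, whose promoter holds the overlapping E2F words, was at 44.8, 63.4, 75.2 and 69.2 CPM (0.41, SE 0.14, adjusted p = 0.080). In both genes WT replicate 2 was much nearer to the cKO libraries than to WT replicate 1. Mcm6 had 47.9 and 58.4 CPM in WT and 70.1 and 67.1 CPM in cKO and missed the threshold narrowly (0.36, SE 0.12, DESeq2 adjusted p = 0.052, and 0.22 with WT replicate 1 left out). Mcm7, which hosts the microRNAs Mir106b, Mir25 and Mir93 on the same strand, was the exception, with 95.2 and 110 CPM in WT and 109 and 104 CPM in cKO.

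Helicase activation brings Cdc45 and GINS to the loaded MCM ring. Cdc45 (chr16:18780447-18811972), the subunit that joins MCM and GINS in the working helicase, had 21.5 and 34.1 CPM in WT replicates 1 and 2 and 41.2 and 40.9 CPM in cKO replicates 1 and 2. It was called increased (log2 fold change 0.56, SE 0.18, DESeq2 adjusted p = 0.041), and both cKO libraries were above both WT libraries. The call ended when only genes with at least 1 CPM in each library were fitted (adjusted p = 0.052) and with independent filtering off (DESeq2 adjusted p = 0.075). The value was 0.26 when WT replicate 1 was left out (DESeq2 adjusted p = 0.89). Mcm10, which helps the assembled helicase to open the origin, had the largest fitted change of all 47 genes, 0.76 (SE 0.25), at an adjusted p of 0.0501 in DESeq2, just short of a call. Its levels were low and well spread, at 6.83, 12.1, 17.2 and 14.9 CPM, and its change was 0.40 with WT replicate 1 left out. The 4 GINS genes had fitted changes from 0.10 in Gins4 to 0.43 in Gins1. Gins1 was at 7.30, 10.5, 11.1 and 13.1 CPM (SE 0.23, DESeq2 adjusted p = 0.39), so that WT replicate 2 was close to cKO replicate 1.

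The polymerases and primase make the new strands. All 8 genes had fitted changes above 0, and 7 of the 8 had both cKO libraries above both WT libraries (24.9% of all genes). Their median was 0.37, which became 0.34 with WT replicate 1 left out and 0.54 with WT replicate 2 left out. Prim2 (chr1:33453808-33669794), the large subunit of the primase that lays down the RNA primers, is the longest of the 47 genes with 215987 bp. It was measured at 206, 191, 230 and 256 CPM in WT replicates 1 and 2 and cKO replicates 1 and 2. It was called increased (log2 fold change 0.29, SE 0.09, DESeq2 adjusted p = 0.026), and it was the only called gene in which WT replicate 1 was above WT replicate 2. When WT replicate 1 was left out its change was 0.33 and its DESeq2 adjusted p 0.099.

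Other polymerase genes were not called in the main DESeq2 test of all 4 libraries. Pola2, the second subunit of polymerase alpha, had 49.6, 57.0, 59.3 and 64.9 CPM (log2 fold change 0.22, SE 0.12, DESeq2 adjusted p = 0.39). Pole, the catalytic subunit of the leading strand polymerase epsilon, had 16.0, 27.6, 39.4 and 33.0 CPM. Although its groups did not overlap and its fitted change of 0.72 was the second largest of the members, its standard error was 0.40 and its adjusted p 0.43. Pole was not called in edgeR (adjusted p = 0.26), and its change was 0.38 with WT replicate 1 left out. Fitted only with genes of at least 1 CPM in each library it was called, again at 0.72 (DESeq2 adjusted p = 0.019). It was also called with a replicate block in DESeq2 (0.77, adjusted p = 0.045). Pold3, a subunit of the lagging strand polymerase delta, showed the closest WT pair of this role, with 58.8 and 59.5 CPM, against 74.3 and 71.2 CPM in cKO (0.30, SE 0.10, adjusted p = 0.060, and 0.0497 in that narrower fit). Leaving out WT replicate 1 gave 0.28 for it, and leaving out WT replicate 2 gave 0.31. The lowest change of the role was that of Pola2 and the highest that of Pole.

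The sliding clamp and its loader tether the polymerases to DNA, and 0 of their 6 genes were called. Pcna, the clamp itself, had 58.6 CPM in WT replicate 1 and 72.1, 73.8 and 73.1 CPM in the other libraries, so that WT replicate 2 was at the cKO level (log2 fold change 0.16, SE 0.12, DESeq2 adjusted p = 0.59). Rfc3, a small subunit of the loader, was at 9.06, 10.7, 12.7 and 12.5 CPM (0.35, SE 0.20, adjusted p = 0.45). The fitted values of the loader subunits were widely spread and ran from -0.08 in Rfc5 to 0.60 in Rfc4, the gene with the fewest fragments of the 47. Rfc4 had 80 fragments in WT replicate 1 and a standard error of 0.38.

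RPA coats the single strands opened by the helicase, and it was the role with the smallest median change. Its 3 genes had fitted changes of 0.08 to 0.09, 0 were called, and in all 3 the genotypes overlapped. Rpa1, the largest subunit, had 173, 162, 186 and 172 CPM in WT replicates 1 and 2 and cKO replicates 1 and 2 (log2 fold change 0.09, SE 0.08, DESeq2 adjusted p = 0.73). The values of Rpa2 and Rpa3 were -0.12 and -0.11 when WT replicate 1 was left out.

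On the lagging strand, the flap nuclease Fen1 trims the fragments and the ligase Lig1 joins them. These genes had the widest split between the WT libraries of any role, with a median log2 ratio of 0.79. Fen1 was at 10.5 CPM in WT replicate 1, 19.0 CPM in WT replicate 2, 16.9 CPM in cKO replicate 1 and 14.6 CPM in cKO replicate 2. Both cKO libraries thus lay between the WT libraries, and the fitted change was 0.09 (SE 0.24, DESeq2 adjusted p = 0.93). Lig1 was at 26.4, 44.5, 51.7 and 48.7 CPM in the same order, which gave 0.50 (SE 0.37, DESeq2 adjusted p = 0.62). Its change was 0.16 with WT replicate 1 left out and 0.93 with WT replicate 2 left out.

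Enzymes of nucleotide supply feed the fork. Rrm1 (chr7:102441695-102469771), the large subunit of ribonucleotide reductase, which makes deoxyribonucleotides, had 27.1 and 35.1 CPM in WT replicates 1 and 2 and 41.8 and 44.6 CPM in cKO replicates 1 and 2. It was called increased (log2 fold change 0.47, SE 0.14, DESeq2 adjusted p = 0.031), with the groups apart. This value was 0.29 with WT replicate 1 left out (DESeq2 adjusted p = 0.82). The small subunit Rrm2, the cell cycle-regulated part of the same enzyme, had 27.6, 49.4, 51.8 and 44.8 CPM, and its genotypes overlapped (0.32, SE 0.43, DESeq2 adjusted p = 0.83). Thymidylate synthase (Tyms) was at 18.9, 28.2, 34.7 and 33.0 CPM (0.52, SE 0.17, adjusted p = 0.066). Thymidine kinase (Tk1) was at 12.9, 21.4, 24.4 and 24.4 CPM (0.51, SE 0.21, DESeq2 adjusted p = 0.18). In Tyms and Tk1 the cKO libraries were close together and WT replicate 2 lay under them. All 4 genes of this role were called when WT replicate 2 was left out.

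Fork protection held the calls with the smallest adjusted p-values. Clspn (chr4:126556980-126593903) encodes claspin, which links the fork to the checkpoint kinase Chk1. It was measured at 24.9 and 38.9 CPM in WT replicates 1 and 2 and at 53.9 and 50.3 CPM in cKO replicates 1 and 2. It had the smallest adjusted p of the 47 genes, 0.0021 in DESeq2, at a log2 fold change of 0.70 (SE 0.17). With TMM scaling factors in DESeq2 its fold change was the same but its adjusted p was 0.29, so that the call ended. Timeless (chr10:128232063-128252941), which travels with the helicase and steadies the fork, had 12.7, 18.6, 25.1 and 24.3 CPM in the same order and was called increased (0.65, SE 0.19, adjusted p = 0.017). In both genes the groups were apart, and WT replicate 2 lay about midway between WT replicate 1 and the cKO libraries. With WT replicate 1 left out, the change of Clspn was 0.41 (DESeq2 adjusted p = 0.24) and that of Timeless 0.40 (adjusted p = 0.70). Tipin, the partner of Timeless, had 6.85, 10.7, 12.3 and 10.2 CPM, and its groups overlapped (0.36, SE 0.25, DESeq2 adjusted p = 0.57).

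Levels can be compared between genes only per length, so CPM was also divided by the length of each gene in kb, introns included. On this scale Pcna was the highest member with 17.8 CPM per kb, which was rank 335 among the 11625 genes tested. Mcm7 followed with 14.3, Cdt1 with 9.08 and Rrm2 with 7.37 CPM per kb. The median of the members was 1.65 CPM per kb, beside 1.46 over all genes tested, and the lowest member was Rfc4 with 0.248 CPM per kb. Genes of one complex were not at one level. Within the MCM ring, whose subunits are present in equal numbers, Mcm7 was at 14.3 and Mcm6 at 2.16 CPM per kb, and the clamp loader ran from 0.248 CPM per kb in Rfc4 to 2.50 in Rfc5. Of the members, 4 overlap other genes of the table on the same strand and 8 overlap genes on the other strand.

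**Figure D4:**
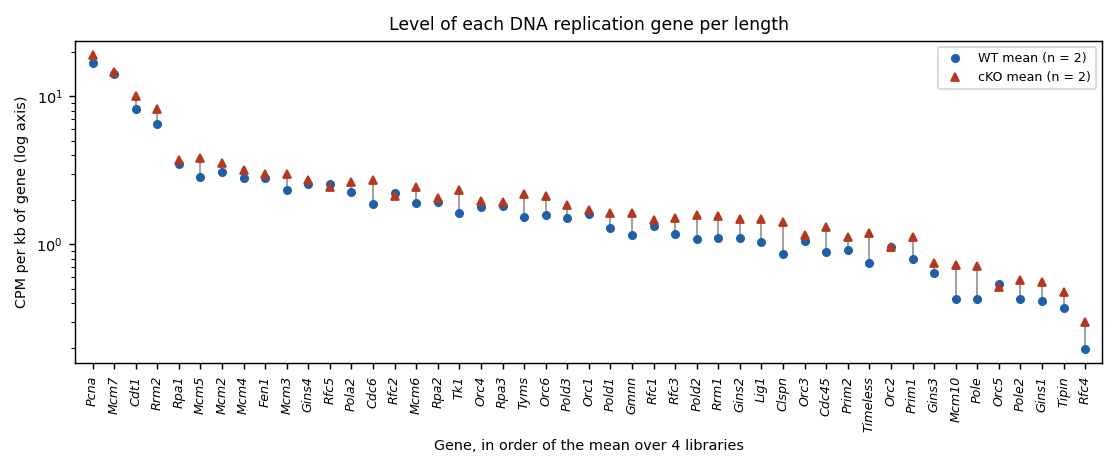
Mean CPM per kb of gene length (log axis) of the 47 DNA replication genes in WT and cKO (2 libraries each), in falling order of the mean over all 4 libraries. Pcna, Mcm7, Cdt1 and Rrm2 stand above the rest, and the cKO mean is above the WT mean for most genes.

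The genes lay on 14 chromosomes, and 14 of the 47 (29.8%) had a gene starting on the other strand within 1000 bp in the opposite direction, as had 20.0% of all genes tested. Among the called genes these were Cdc45, beside Ufd1, and Prim2, beside 1700001G17Rik. Gene length ran from 3206 bp in Rpa3 to 215987 bp in Prim2.

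Other genes of the same pathway were read from a list of 38 further replication factors, which share no gene with the 47. Of these, 33 had fitted changes above 0, as had 5837 of the 11625 genes tested, and the median log2 fold change was 0.21. By the DESeq2 rule 4 were called increased (10.5%, beside 2.14% of all genes) and 0 decreased. The called genes were Pola1, Cdc7, Atad5 and Chaf1b. Pola1, the catalytic subunit of polymerase alpha, had 60.4, 76.2, 109 and 107 CPM in WT replicates 1 and 2 and cKO replicates 1 and 2 (0.65, SE 0.12, DESeq2 adjusted p = 3.2e-06). It was also called when WT replicate 1 was left out, at a log2 fold change of 0.49, which no member was. The calls of Cdc7, Atad5 and Chaf1b ended in that fit, with values of 0.46, 0.36 and 0.54 (DESeq2 adjusted p = 0.52, 0.48 and 0.27), and in edgeR none of the 4 genes was called. Cdc7, the kinase that fires origins, had 15.3, 17.5, 25.4 and 23.1 CPM (0.56, SE 0.16, DESeq2 adjusted p = 0.013). Atad5, which takes the clamp off DNA, had 31.9, 36.1, 44.9 and 48.6 CPM (0.46, SE 0.12, adjusted p = 0.010). Chaf1b, a histone chaperone subunit that follows the fork, had 15.7, 19.3, 31.0 and 25.8 CPM (0.69, SE 0.16, DESeq2 adjusted p = 0.0018). In these 4 genes both cKO libraries were above both WT libraries and the WT libraries were closer to each other than to the cKO libraries.

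Lists of cell cycle phase genes were set beside the members. Of the 47, 19 are also on a common list of S-phase genes. The median log2 fold change was 0.36 for these 19, with 4 calls (21.1%), and 0.28 for the other 28 members, with 2 calls (7.14%). Without WT replicate 1 these medians were 0.18 and 0.15. The 24 S-phase genes that are not members had a median of 0.52, with 7 called increased (29.2%, beside 2.14% of all genes). Of the 7, Pola1 and Chaf1b are also among the 38 further replication factors, so the lists are not separate. In 20 of the 24 both cKO libraries were above both WT libraries (24.9% of all genes). Without WT replicate 1 the median of the 24 was 0.22. Of their 7 calls 1, that of Pola1, held in that fit, and 0 held in edgeR. The 51 G2/M genes differed more between the WT libraries than between the genotypes. Their median log2 ratio of WT replicate 2 over WT replicate 1 was 0.66, with 48 of 51 higher in WT replicate 2, and their median log2 fold change was 0.27, with 2 called increased (3.92%, beside 2.14% of all genes). Neither call held without WT replicate 1 or in edgeR. Without WT replicate 1 the G2/M median was -0.03, with 22 of 51 above 0, whereas that of the members was 0.16. Differences between the lists were not tested, nor was the part of the WT replicate difference in the member values.

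**Figure D5:**
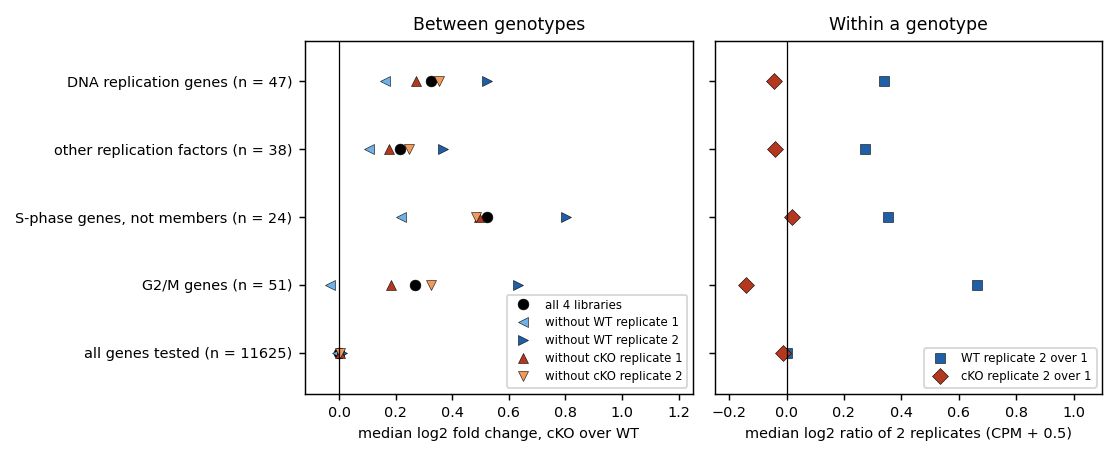
Left, median log2 fold change of cKO over WT for the 47 DNA replication genes, 38 other replication factors, 24 other S-phase genes, 51 G2/M genes and all 11625 genes tested, with all libraries and with each library left out. Right, median log2 ratio of replicate 2 over replicate 1 within each genotype, which is 0.34 for the DNA replication genes and 0.66 for the G2/M genes in WT and near 0 for all genes.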

How the data were processed

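The authors filtered reads with fastp 0.13.1 and aligned them with STAR 2.7.9a to the mouse genome GRCm38 (mm10), and the submitters' processing notes also name featureCounts 1.6.1. The deposited table gives expected counts of fragments over whole genes, introns included, for 4 libraries, and 8.61% of its values are fractional. It also holds gene coordinates and lengths, and 0 columns of other samples. Yeast spike-in was not used for scaling by the authors and was not used here.

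Here the counts were rounded, and CPM was taken over library totals. Ratios of 2 libraries were taken on log2(CPM + 0.5). The main test was the DESeq2 1.42.0 Wald test over all genes (R 4.3.3), with Benjamini-Hochberg adjustment and independent filtering at its default of 0.1. The call rule, taken from the study, was an adjusted p under 0.05 with a 1.2-fold change or more and a mean of 1 CPM or more. edgeR 4.0.16 (quasi-likelihood, filterByExpr), limma 3.58.1 (voom), other scalings and filters, a replicate block and each library left out were alternatives. Same-numbered libraries did not deviate together (correlation -0.03 over 11625 genes). The fits were tested on simulated data. Fragments were not identified as single molecules.

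The members, the lists and the genes named in full (every called member and set members of each role) were chosen with earlier results of these data known, and no list was tested as a set. Python 3.11.15, pandas 2.3.3 and matplotlib 3.10.9 made tables and figures.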

Additional observations from a re-analysis of the deposited data

How the results depend on the processing

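With 2 libraries a group, the count of called members depended on the test. It was 6 increased with all libraries and DESeq2, and 0 with edgeR, with limma voom, and with edgeR on genes averaging 1 CPM or more. It was 8 with library totals, which added Mcm6 and Mcm10, and 7 with genes of at least 1 CPM in each library, which added Pold3 and Pole and lost Cdc45. It was 3 (Prim2, Timeless and Clspn) with independent filtering off, 2 at a 1.5-fold limit, and 16 with edgeR without a filter on low counts, an alternative added after seeing the data, as were the edgeR fits on genes averaging 1 CPM and with a replicate block. TMM factors in DESeq2 gave 5, ending the call of Clspn (adjusted p = 0.29). The replicate block gave 2 calls in DESeq2, Pole and Clspn, and 0 in edgeR. No setting called a member decreased. Leaving out each library gave from 0 to 15 calls and a median log2 fold change of the members from 0.16 to 0.52, beside 0.33 with all libraries. The number of all genes called, in either direction, was 431 in the main test, 58 in edgeR and 61 in limma voom. It was 430 with library totals, 444 with genes of at least 1 CPM in each library and 423 with TMM factors. With independent filtering off it was 361, with the replicate block in DESeq2 193, and in edgeR without a filter 838. In edgeR it was 76 on genes averaging 1 CPM and 28 with a replicate block.

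For the 38 other replication factors, 4 were called in the main test, 0 in edgeR, in limma voom, in edgeR on genes averaging 1 CPM and in edgeR with a replicate block, 2 with the replicate block in DESeq2, 2 at a 1.5-fold limit, 13 in edgeR without a filter, and from 1 to 12 without each library. Fitted log2 changes crossed 0 in 8 members without 1 library: Orc2 (-0.032 to 0.026), Mcm7 (-0.053 to 0.17), Gins4 (-0.037 to 0.24), Rfc2 (-0.16 to 0.013), Rpa2 (-0.12 to 0.32), Rpa3 (-0.11 to 0.29), Fen1 (-0.28 to 0.59) and Rrm2 (-0.043 to 0.81). Scaling to library totals turned Orc2 to 0.0007. The cause of these differences was not tested. The medians of the replicate ratios, and the numbers of members at least 1.2-fold apart, moved little with the other scalings. Standard errors were largest in Rrm2 (0.43), Pole (0.40), Rfc4 (0.38) and Lig1 (0.37), of which Rfc4 alone had few fragments.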
